A study of Mus musculus with 6 samples.

Results

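The gene set described here consists of the Hsp70 and DnaJ chaperones of the mouse together with their partner heat shock proteins. Members were taken by name, as every listed gene whose symbol begins with Dnaja, Dnajb, Dnajc, Hspa or Hspb and a number, plus Hsp90aa1, Hsp90ab1, Hspd1, Hspe1 and Hsph1, and 14 entries with the suffix -ps were left out. This gave 71 genes of the 55162 listed in the series. They comprise 45 DnaJ genes (4 Dnaja, 13 Dnajb and 28 Dnajc), 13 Hspa genes, 8 Hspb genes and the 5 genes taken by full name. All 71 were listed in the table of single oocytes and 58 in the table of oocyte pools.

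Messenger RNA with a poly(A) tail was sequenced from mature mouse eggs in metaphase II (MII), ovulated and arrested until a sperm enters. Smart-seq2, which copies whole transcripts of very few cells and amplifies them by PCR, gave the libraries, and the labels name no molecular identifiers. The siPlat group held 2 pools of 10 young oocytes treated with siRNA against Plat, the gene of tissue-type plasminogen activator, and the siCtrl group held 2 pools of 10 young oocytes treated with control siRNA. One aged sample held 59 single oocytes and one young sample held 35, both without a treatment. The labels give the ages only as aged and young, and they name no strain, genotype, animal, siRNA sequence or time after siRNA treatment, so p-values measure only the spread between these pools, which may be technical.

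Hsp70 proteins bind and release unfolded stretches of other proteins in a cycle driven by ATP. J-domain proteins, encoded by the Dnaj genes, deliver clients and start ATP hydrolysis, whereas Hsp110 proteins (Hsph1, Hspa4, Hspa4l) exchange the nucleotide and so reset the cycle. Hsp90 proteins act later on signalling clients, and Hspd1 with Hspe1 forms the folding chamber of mitochondria. Small heat shock proteins such as Hspb1 hold unfolded proteins without ATP. Many of these genes are induced by the transcription factor Hsf1, which binds heat shock elements. MII oocytes transcribe little and live on mRNA stored earlier in growth.

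Gene counts were 12142884 and 13139499 in the siPlat pools and 17475952 and 13442260 in the siCtrl pools. Each aged single oocyte had between 2018226 and 9502184, and each young one between 5480050 and 11894782. Plat stood at 51.4 and 39.0 CPM (counts scaled to a common library total) in the siPlat pools, against 441 and 439 CPM in the siCtrl pools, as their labels say. In 21 of the 59 aged oocytes, mitochondrially encoded genes took 6.78% to 61.6% of gene counts, against at most 2.97% in the other 38 aged oocytes and at most 1.92% in young oocytes. These 21 oocytes, called aged oocytes of high mitochondrial share below, stand apart from the rest, and results are given with and without them. All 10 oocyte markers were detected in every group, but their summed level was 642 to 3854 CPM in the 21, against 13640 to 22627 CPM in the other aged and 13924 to 23058 CPM in the young oocytes. Summed cumulus and granulosa markers reached at most 30.9 CPM in the 21, 88.5 CPM in the other aged and 105 CPM in the young oocytes, with Ptx3 and Fst at 0 in the other aged and Amh, Fshr and Foxl2 at 0 in the young. Summed stroma and endothelium markers were 70.1 to 172 CPM in the other aged and 98.7 to 230.3 CPM in the young oocytes, with Cdh5 at 0 in both, and at most 29.97 CPM in the 21. Blood and immune markers reached at most 129.9 CPM in the 21, 19.1 CPM in the other aged and 21.2 CPM in the young oocytes. The part of these markers in the results was not tested.

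Promoter sequence was available for 57 of the 71 genes (RefSeq, GRCm38.p6), from which the 250 bases before each start were searched on both strands. A heat shock element of at least 2 units, spelled GAANNTTC or TTCNNGAA, lay in 14 of the 57 promoters (24.6%), and in 14.5% of the promoters of all 27025 genes searched the same way. A run of 3 units, in which the same spelling goes on by NNGAA or NNTTC and which therefore contains the shorter element, occurred in Dnajb6, Hspd1 and Hspe1, or 5.26% of members and 0.514% of all genes. Those below are shown because their genes carry the results that follow or hold 3 units, so genes without an element could not be shown. Each is printed in the direction of its own gene, with the element in capitals. Among genes followed below, Hspa4, Dnajc7, Dnajb12, Dnajb2, Dnajc9 and Dnajb1 had no heat shock element in the searched bases. Hspa8, Hsp90aa1, Hsp90ab1, Hspa9, Hspa13, Dnajc2, Dnajc5b and Dnajc11 were among the genes with no promoter sequence available and were not searched. Hspe1 lies at chr1:55088053-55088082 on the plus strand, Hsph1 at chr5:149636351-149636380 on the minus strand, Dnaja4 at chr9:54699458-54699487, Dnajb6 at chr5:29735844-29735873 and Dnajc10 at chr2:80315238-80315337, the last 3 on the plus strand.
Hspe1: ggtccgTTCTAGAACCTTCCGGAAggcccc
Hsph1: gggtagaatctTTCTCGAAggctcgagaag
Dnaja4: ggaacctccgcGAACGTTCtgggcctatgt
Dnajb6: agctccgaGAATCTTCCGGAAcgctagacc
Dnajc10: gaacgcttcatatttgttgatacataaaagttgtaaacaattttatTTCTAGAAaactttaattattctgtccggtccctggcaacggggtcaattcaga

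Starts here are those of RefSeq transcripts and can lie inside the wider GENCODE gene spans given below, as for Hsph1 and Dnaja4, and the stretches of Hspe1, Hsph1, Dnajb6 and Hspa5 fall within an annotated exon of some transcript. The run of units in Hspe1 begins 89 bases before its start, the element of Hsph1 54 bases before, that of Dnajc10 182 bases before and the first of a pair in Dnaja4 90 bases before. Hspe1 and Hspd1 lie on opposite strands. The Hspe1 start lies at 55088148 on chromosome 1, and the Hspd1 starts at 55088243 and 55087932 lie 95 and 216 bases from it. From 55087932 the genes are transcribed away from each other, and the window of that start holds the stretch shown for Hspe1. That stretch is therefore counted for both Hspd1 and Hspe1 in the shares of promoters with a heat shock element given above. From 55088243 Hspd1 is transcribed across the Hspe1 start, and the stretch lies outside that window. The ER stress element, the sequence bound in the unfolded protein response and spelled CCAAT, then 9 bases of any kind, then CCACG, occurred in the promoters of Hspa5 and Dnajc3, or 3.51% of members and 0.13% of all genes. The CCAAT box, part of that element, occurred in 38.6% of members and 37.5% of all genes. Both ER stress elements are shown, for Hspa5 at chr2:34772020-34772049 and for Dnajc3 at chr14:118937786-118937886, both on the plus strand, since these genes are followed below across oocytes.
Hspa5: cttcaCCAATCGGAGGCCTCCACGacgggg
Dnajc3: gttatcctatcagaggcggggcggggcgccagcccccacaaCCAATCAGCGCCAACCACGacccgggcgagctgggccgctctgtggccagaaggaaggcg

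The MII oocyte held a chaperone set dominated by Hsp90aa1. In young oocytes the 71 genes took 0.792% of gene counts, and Hsp90aa1, the stress-inducible cytosolic Hsp90, alone gave 38.3% of those. Per kilobase of exon, the scale on which levels of different genes are compared here, the level of Hsp90aa1 was 899 CPM per kilobase in the young sample, with single oocytes at 624 to 1097. Dnajb4, a cytosolic J-protein, followed with a level of 276 CPM per kilobase (213 to 337 over oocytes). Dnajc8, a J-domain protein associated with the spliceosome, stood at 265 CPM per kilobase (202 to 374). Hsp90ab1, the constitutive Hsp90, stood at 233 CPM per kilobase (140 to 301). Hsp90aa1 was above the other 3 in every young oocyte by these ranges, whereas the ranges of Dnajb4, Dnajc8 and Hsp90ab1 overlapped. Dnajc3, an ER co-chaperone that also inhibits the kinase Perk, came next at 133 CPM per kilobase (115 to 167), and Hspe1, Hspa14 and Dnaja2 lay between 84.6 and 91.1 CPM per kilobase with overlapping ranges.

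The classical heat-inducible Hsp70 genes had very few counts. Hspa1a had 45 counts over the 59 aged oocytes and 31 over the 35 young oocytes, and Hspa1b had 153 and 32 in the same order, so that both stayed under 0.5 CPM in each age. Without the 21, Hspa1b was at 0.576 CPM in the other aged oocytes (exact Poisson interval 0.487 to 0.676) and 0.105 CPM in young oocytes (0.0721 to 0.149). It had a count in 28 of the 38 other aged and 12 of the 35 young oocytes, and 14 of the 38 lay above the highest young oocyte. Hspa1a was at 0.173 CPM in the other aged and 0.102 CPM in young oocytes, with a count in 13 and 12 oocytes. Hspa1a and Hspa1b are near-identical copies on chromosome 17, so the split of reads between them is uncertain. The constitutive cytosolic Hspa8 was at 49.3 CPM in young oocytes, the ER Hsp70 Hspa5 at 149.9 CPM and the mitochondrial Hsp70 Hspa9 at 205 CPM. Of the 71 genes, 14 had over 100 CPM in young oocytes, 14 had counts but under 1 CPM in both ages, and Dnajb8, Dnajb13, Hspb2 and Hspb7 had 0 counts in all 94 oocytes. The Hspb genes, which were taken by name and not by function, were therefore represented mainly by Hspb1 and Hspb11, at 11.2 and 11.7 CPM in young oocytes.

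**Figure D1:**
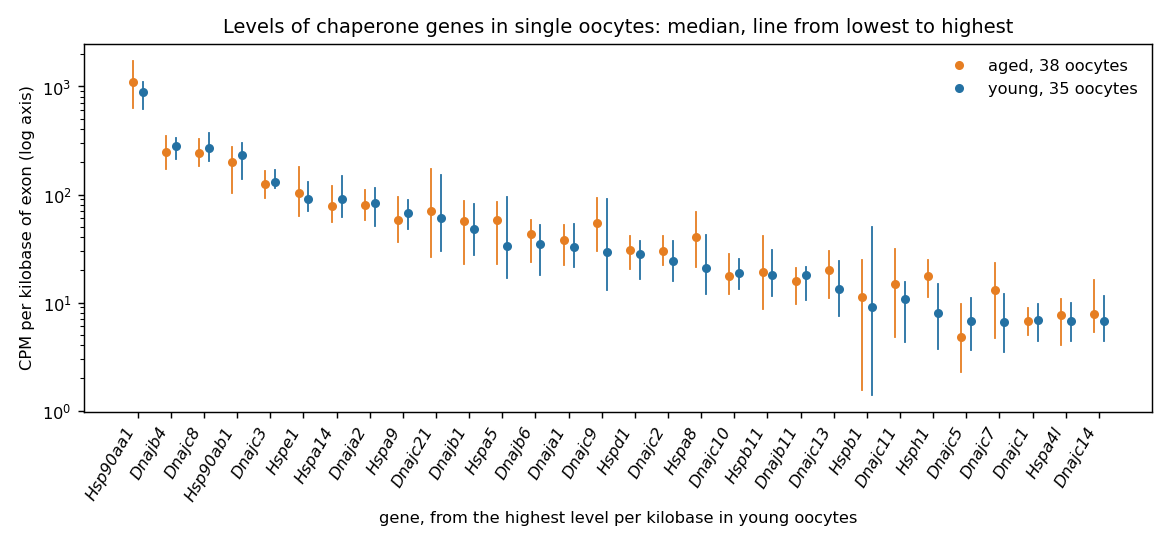
The 30 chaperone genes of highest level per kilobase of exon in young oocytes, on a log axis in CPM per kilobase; points are medians over 38 aged oocytes (without those of high mitochondrial share) and 35 young oocytes, and lines run from the lowest to the highest oocyte. Hsp90aa1 lies apart at the top, with young oocytes at 624 to 1097 CPM per kilobase.

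Variation among young oocytes differed widely between members. The coefficient of variation of CPM (SD over mean, n = 35 oocytes of 1 sample) had a median of 0.25 over 41 chaperone genes and of 0.27 over 8230 genes. Dnajc3 was among the steadiest at 0.08, with 589 to 858 CPM and a median of 668 CPM. Hspb1, a small heat shock protein, reached 0.77, with 1.43 to 52.1 CPM and a median of 9.35 CPM. Hspa5 reached 0.42, with 63.0 to 353 CPM, although it works in the same compartment as Dnajc3. Some members varied together from oocyte to oocyte. Spearman's rho of Dnajc13, an endosomal J-protein, with Dnajc21, which acts in ribosome assembly, was 0.74 over the 38 other aged and 0.90 over the 35 young oocytes. For Hspa5 and Hsp90b1, the ER Hsp90, rho was 0.02 in the other aged and 0.60 in young oocytes. For Hspd1 and Hspe1 it was −0.27 in the other aged and 0.25 in young oocytes. These coefficients describe single libraries that share depth and amplification and carry no test.

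For aged against young oocytes each age is 1 sample, so the comparison has no replicate check and no p-value. Counts were summed over the oocytes of an age, and genes whose CPM averaged 5 or more over both ages were called higher or lower past 1.5-fold, on the log2 ratio of CPM plus 1, which understates the change of low genes. Over all oocytes, 40 members passed that minimum; 4 were higher in aged oocytes (Dnajc7, Hsph1, Hspa4 and Hspa8), where 9.45% of all 8303 genes were higher. Another 5 were lower (Dnaja4, Hspa13, Hspa14, Hsp90ab1 and Dnajb11), where 9.38% of all genes were lower. Without the 21 aged oocytes of high mitochondrial share, 43 members passed, 7 were higher (8.87% of 8413 genes) and Dnaja4 alone was lower (1.87% of genes). Of the 7, Dnajb12 and Dnajb2 passed the minimum only through the aged oocytes, with 8.02 and 7.64 CPM in the other aged and 2.47 and 4.11 CPM in young oocytes, so for them the count carries no weight. The median log2 ratio of the members was 0.01 over all oocytes and 0.19 without the 21, and over all genes it was −0.07 and 0.08.

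These CPM values give shares of the RNA in an oocyte, and values scaled to spike-in RNAs look different. Whether both ages received the same spike-in amount was not tested. With 1 sample an age, a difference in that amount cannot be told apart from one in RNA content. Gene counts per count of the ERCC spike-in RNAs, added to the single oocytes, had a median of 29.5 in the 38 other aged oocytes. Young oocytes had a median of 63.7. The ranges overlapped, at 14.8 to 49.5 in the other aged and 18.3 to 147 in young oocytes. Scaled to the spike-ins and without the 21, the median log2 ratio of all genes was −0.73 and that of members −0.63, and of the 37 members that passed the minimum on that scale 0 were higher by 1.5-fold and 21 lower (0.257% and 65.6% of genes). Each direction below is therefore relative to the other genes of the same oocytes, and counts per spike-in count were lower in aged oocytes for most members.

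The constitutive Hsp70 and 2 of the 3 Hsp110 genes were higher in aged oocytes. Hspa8 (chr9:40800984-40810087, GRCm38) had a lowest, median and highest value of 50.5, 97.1 and 166 CPM in the 38 other aged oocytes, against 28.9, 49.7 and 101 CPM in the 35 young oocytes. Every one of the 38 lay above the young median and 13 lay above the highest young oocyte. Hspa8 thus had a log2 ratio of 0.97, and 0.59, just at the 1.5-fold limit, with all 59 aged oocytes.

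Hsph1 (chr5:149614287-149636376), a nucleotide exchange factor of Hsp70, had 47.0, 74.8 and 105 CPM in the other aged oocytes, against 15.7, 34.0 and 63.0 CPM in young oocytes. Hspa4 (chr11:53259814-53300457), its close relative, had 19.0, 44.8 and 72.5 CPM in the other aged oocytes, against 8.84, 19.7 and 33.4 CPM in young oocytes. For Hsph1, 29 of the 38 lay above the highest young oocyte, and for Hspa4 28 did. Their log2 ratios were 1.01 and 1.03 without the 21 and 0.76 and 0.65 with them. The third gene of the group, Hspa4l, did not pass the limit, with 39.0, 73.7 and 103 CPM in the other aged oocytes, against 42.8, 64.2 and 96.1 CPM in young oocytes and a log2 ratio of 0.19.

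Among J-proteins, Dnajc7, which bridges Hsp70 and Hsp90, had 10.8, 30.6 and 53.6 CPM in the other aged oocytes, against 8.18, 15.2 and 27.8 CPM in young oocytes, and 29 of the 38 exceeded the highest young oocyte. Dnajb12, an ER membrane J-protein, had 4.12, 7.59 and 19.0 CPM in the other aged oocytes, against 0.293, 2.19 and 6.2 CPM in young oocytes, with all 38 above the young median. Its log2 ratio was 1.38, at a low level that passed the minimum only through the aged oocytes, as was so for Dnajb2. Dnajb2 (log2 ratio 0.76) and Dnajc9, which chaperones histones H3 and H4 (0.81), also passed the limit without the 21, but single Dnajc9 values overlapped widely, at 49.1 to 151 CPM in the other aged and 21.3 to 147 CPM in young oocytes. Dnajc7 overlaps Cnp and Nkiras2 in the annotation and the strand setting of the counting is not given, so its counts are uncertain.

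Dnaja4, a heat-responsive cytosolic J-protein at chr9:54698873-54716315, was lower. It had 3.38, 8.87 and 17.3 CPM in the other aged oocytes, against 5.87, 17.9 and 33.5 CPM in young oocytes. None of the 38 lay above the young median and 6 lay below the lowest young oocyte. Its log2 ratio was −1.06 without the 21 and −1.47 with them. Its close relatives Dnaja1 and Dnaja2 had log2 ratios of 0.15 and −0.08 without the 21. Dnaja4 overlaps Wdr61 in the annotation, so its counts carry the same uncertainty.

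Without the 21, the Hsp90 genes stood on opposite sides of the young sample and neither passed the limit. Hsp90aa1 had 2118, 3695 and 5858 CPM in the other aged oocytes, against 2111, 3015 and 3708 CPM in young oocytes, and 35 of the 38 lay above the young median. Hsp90ab1 had 261, 508 and 700.3 CPM in the other aged oocytes, against 352, 582 and 759 CPM in young oocytes, and 6 of the 38 lay above the young median. Their log2 ratios were 0.28 and −0.24 without the 21, and −0.04 and −0.61 with them, where Hsp90ab1 passed.

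Scaled to the spike-ins without the 21, the log2 ratios of Hspa4, Hsph1, Hspa8 and Dnajc7 shrank to 0.21, 0.19, 0.14 and 0.14, that of Dnajb12, which was under the minimum on that scale and so not counted there, to 0.66, and those of Dnajc9 and Hsp90aa1 turned to −0.02 and −0.56. Dnaja4 stood at −1.79 and Hsp90ab1 at −1.08 on that scale. With all 59 aged oocytes on the same scale, Hspa4, Hsph1, Hspa8 and Dnajc7 were lower in the aged sample, as were all 36 members that passed the minimum and 95.8% of genes.

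A list of 13 heat shock genes holds mostly heat-inducible genes but also the constitutive Hspa8 and Hsp90ab1. Of its 11 members that passed the minimum without the 21, Hsph1 and Hspa8 were higher and none was lower (8.87% and 1.87% of genes), and the median log2 ratio was 0.19, against 0.08 over all genes. Scaled to the spike-ins, 0 were higher and 6 of 11 lower, with a median of −0.62, against −0.73 over all genes. Dnajb1, the J-protein most often used as a marker of Hsf1 activity, had 72.9, 184 and 276 CPM in the other aged oocytes, against 88.6, 153 and 262 CPM in young oocytes. Hspe1 had 49.4, 79.3 and 139.7 CPM in the other aged oocytes, against 54.9, 69.7 and 100.01 CPM in young oocytes. For Dnajb1, 2 of the 38 lay above the highest and 1 below the lowest young oocyte; for Hspe1, 9 lay above and 4 below. Of the 8 genes of the mitochondrial list, 6 passed the minimum and none was called in either direction.

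**Figure D2:**
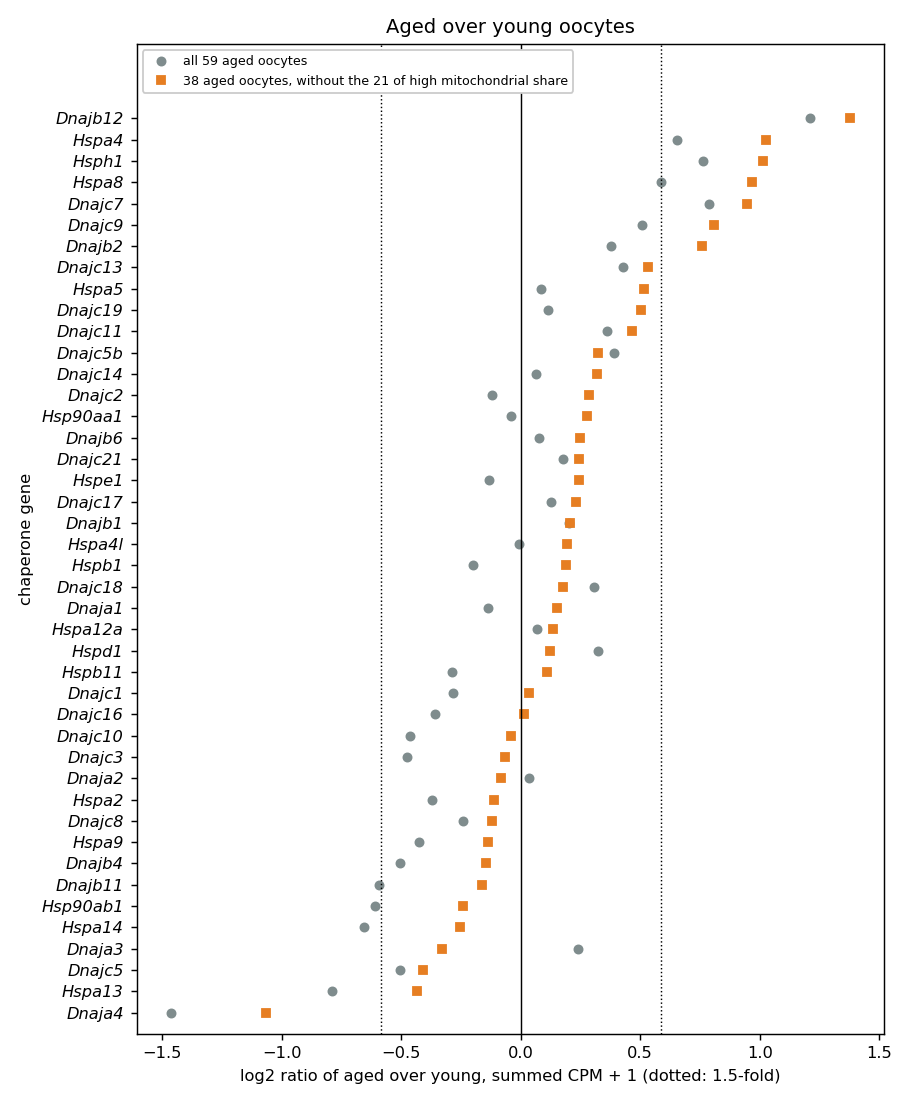
Log2 ratio of aged over young oocytes, from summed CPM plus 1, for the 43 chaperone genes that passed the minimum without the 21 aged oocytes of high mitochondrial share; grey points use all 59 aged oocytes, orange squares the other 38, and dotted lines mark 1.5-fold. Dnajb12, Hspa4, Hsph1, Hspa8, Dnajc7, Dnajc9 and Dnajb2 lie past the upper line and Dnaja4 past the lower line in the 38, and most genes lie further left with all 59. Dnajb12 and Dnajb2 passed the minimum only through the 38.

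**Figure D3:**
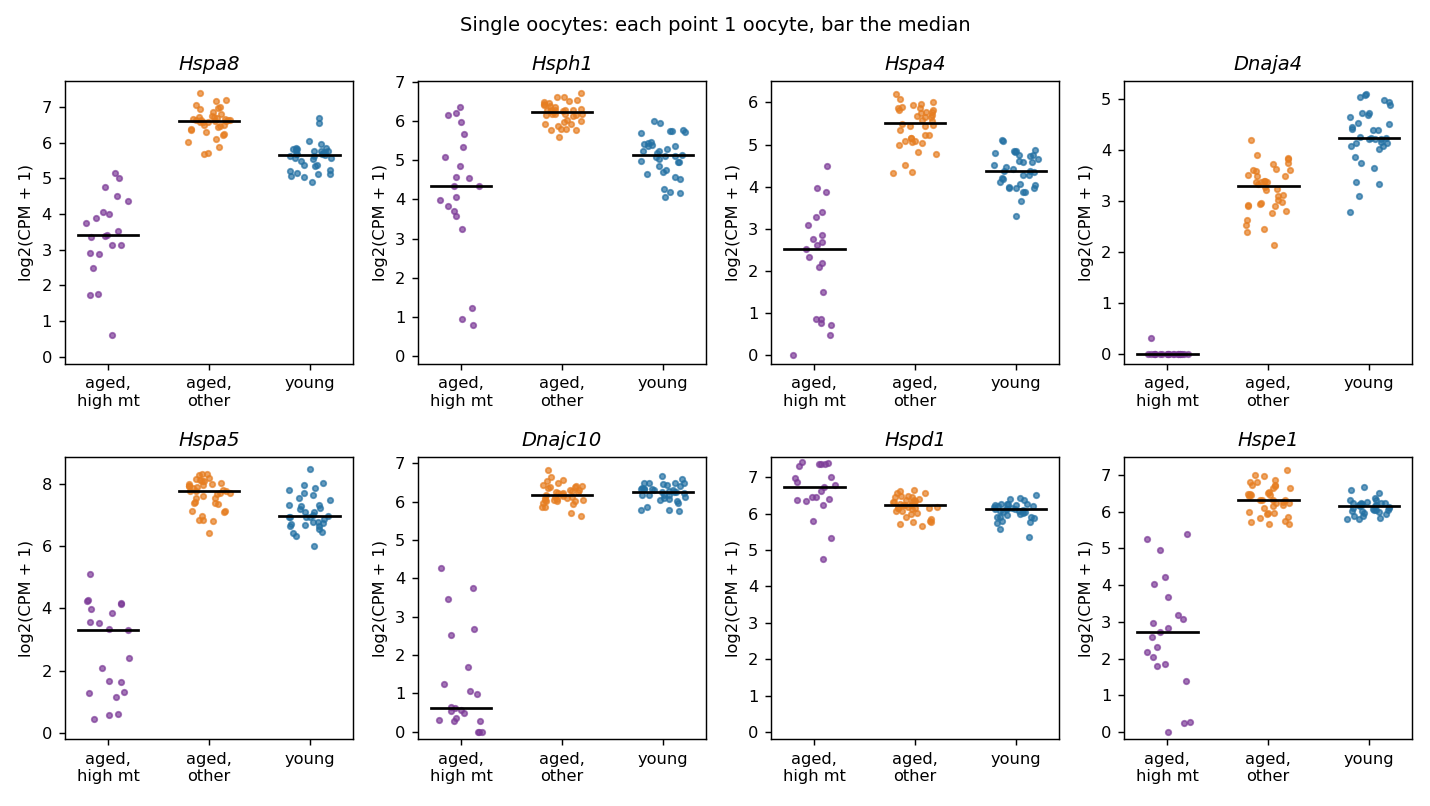
CPM of 8 chaperone genes in single oocytes on a log2 axis (CPM plus 1), with a point for each of 21 aged oocytes of high mitochondrial share, 38 other aged oocytes and 35 young oocytes, and a bar at the median. Hsph1 of the other aged oocytes lies mostly above the highest young oocyte (63.0 CPM), and Hspa5 of the 21 lies below every young oocyte.

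The 21 aged oocytes of high mitochondrial share held 0.295% of gene counts in the 71 genes, against 0.872% in the other aged oocytes. Relative to the other aged oocytes, all genes had a median log2 ratio of −0.94, with 14.8% of 8087 genes higher and 58.5% lower by 1.5-fold. Members had a median of −1.31, with 2 of 40 higher and 25 lower. Some of the 25 passed the minimum only through the other aged oocytes, as named below. The shift of all genes, the loss of oocyte markers given above and the share of mitochondrial counts move with these values, and their part in them was not tested.

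Genes of the endoplasmic reticulum (ER) had the lowest median of the role lists, but falls were not particular to them. Over 2 and 3 genes past the minimum, the cytosolic Hsp70 and Hspb lists had median log2 ratios of −3.08 and −3.02. The list of Hsp90aa1, Hsp90ab1, Hspd1 and Hspe1 had −2.29, with 3 of 4 lower, whereas the Dnaja list had 0.39. Of 9 listed ER genes, 6 passed the minimum, and all 6 were lower, with a median log2 ratio of −3.86. Dnajb11, Dnajc10 and Dnajb12 passed it only through the other aged oocytes, with 1.27, 3.15 and 4.34 CPM in the 21. For them the count carries no weight, and the median of −3.86 includes them. Hspa5, also called BiP, the ER Hsp70, had 0.367, 8.96 and 33.3 CPM in the 21, against 85.4, 217 and 321 CPM in the other aged and 63.0, 124 and 353 CPM in the young oocytes. No oocyte of the 21 reached the lowest young or other aged oocyte. Dnajb11, a J-protein of Hspa5 (log2 ratio −4.51), and Dnajc10, an ER disulfide reductase (−4.17), were down together with Hspa5 (−4.47) and Dnajc3 (−3.56). Dnajc1 stood at −1.89, and Dnajb12 of the ER membrane changed least of the 6, with a log2 ratio of −0.76.

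Mitochondrial chaperones, all encoded in the nucleus, split. Hspd1, the Hsp60 subunit, had 26.2, 106 and 171 CPM in the 21, against 49.8, 73.9 and 99.9 CPM in the other aged and 40.2, 68.3 and 90.3 CPM in the young oocytes. Hspe1, its co-chaperonin, had 0, 5.59 and 40.7 CPM in the 21, against 49.4, 79.3 and 139.7 CPM in the other aged and 54.9, 69.7 and 100.01 CPM in the young oocytes. Partners in the same folding chamber therefore stood on opposite sides of the other aged oocytes, with log2 ratios of 0.63 for Hspd1 and −2.70 for Hspe1. The 2 genes overlap each other at their starts on opposite strands, so reads there could not be assigned with certainty.

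Dnaja3, a mitochondrial J-protein, was also higher, with a log2 ratio of 1.48 and 0.467, 26.7 and 122 CPM in the 21, against 4.88, 13.8 and 25.5 CPM in the other aged oocytes. Dnajc19, of the import motor, and Hspa9 were lower, with log2 ratios of −3.06 and −1.61. Dnajc19 passed the minimum only through the other aged oocytes (18.9 CPM, against 1.38 CPM in the 21), so its call carries no weight. Dnaja4 was close to absent, at 0 to 0.233 CPM in the 21, whereas the summed levels of Dnaja2 (log2 ratio 0.39) and Dnajb1 (−0.03) stayed within 1.5-fold. Their single values were widely spread, at 60.2 to 872 CPM for Dnaja2 in the 21, against 169 to 318 CPM in the other aged oocytes, and at 15.1 to 368 CPM for Dnajb1 in the 21, against 72.9 to 276 CPM in the other aged oocytes. Hspa8, which was higher in the other aged oocytes than in young ones, stood at 0.527, 9.57 and 34.7 CPM in the 21, and 19 of the 21 lay below the lowest young oocyte.

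**Figure D4:**
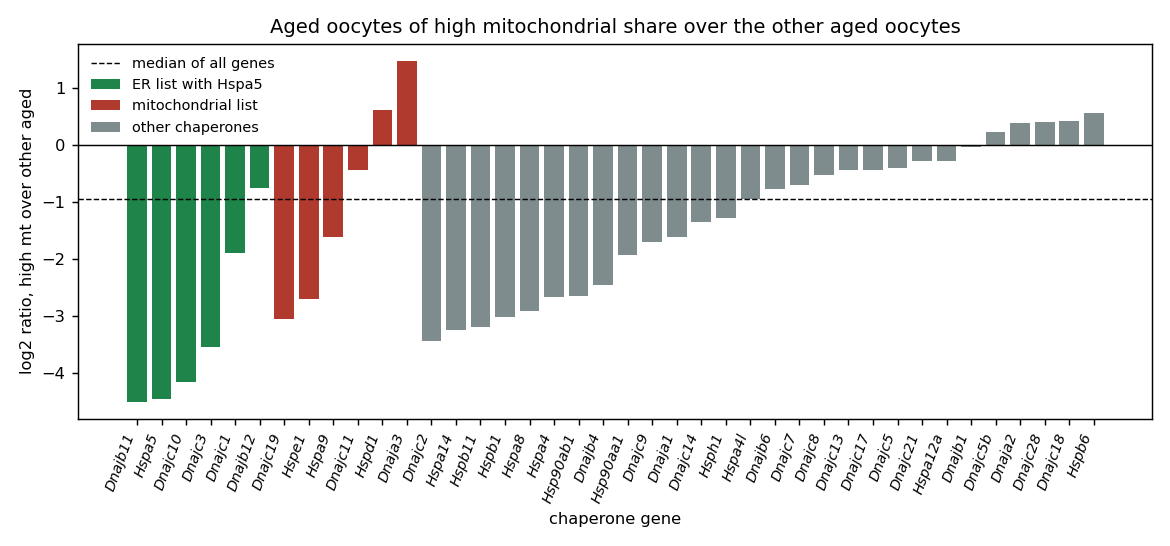
Log2 ratio of the 21 aged oocytes of high mitochondrial share over the other 38 aged oocytes for the 40 chaperone genes that passed 5 CPM, from summed CPM plus 1, coloured by listed compartment, with a dashed line at the median of all genes. All 6 ER genes are below 0, and Dnaja3 (1.48) and Hspd1 (0.63) stand above it in the mitochondrial list.

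Knockdown of Plat in young oocytes asked which transcripts differ when Plat mRNA is lowered. With 2 pools a group, edgeR's quasi-likelihood test over all genes with Benjamini-Hochberg adjustment called 2 of the 53 members tested, where 3.54% of all 11136 genes were called, 2.13% higher and 1.41% lower. Another 5 listed members (Dnajb3, Dnajc6, Dnajc27, Hspa1a and Hspa1b) were too low to test. The members' median log2 fold change was 0.01, against −0.03 over all genes tested. At an unadjusted p under 0.05, 18 members and 2096 of all genes passed. Both siPlat pools lay above both siCtrl pools for 16 members and below both for 17, where 23.5% and 25.8% of all genes did so. Summed stroma and endothelium markers were 14.9 to 17.8 CPM in the siPlat pools, against 22.6 to 23.3 CPM in the siCtrl pools, and blood and immune markers 4.08 to 4.999 CPM in the siPlat pools, against 8.12 to 8.41 CPM in the siCtrl pools, with 5 and 2 of 7 markers listed. Oocyte markers were 17660 to 20201 CPM in the siPlat pools, against 18340 to 20382 CPM in the siCtrl pools, and cumulus and granulosa markers, with 2 of 10 listed, 18.4 to 37.5 CPM, against 22.5 to 30.4 CPM in the siCtrl pools. The part of these markers in the knockdown values was not tested.

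Dnajc5b, a close relative of the synaptic co-chaperone cysteine string protein known mainly from testis, rose. It had 22.8 and 22.3 CPM in the siPlat pools, against 7.28 and 6.99 CPM in the siCtrl pools, a log2 fold change of 1.66 ± 0.26 (SE, 2 pools a group; edgeR adjusted p = 0.00852). The gene spans chr3:19508595-19610862 (GRCm38) and overlaps 1700064H15Rik, Gm23330 and Gm6141 in the annotation, so its counts are uncertain in the same way. It stood at 6.86 CPM in the other aged oocytes and 5.29 CPM in young single oocytes.

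Dnajc10, the ER disulfide reductase whose promoter is printed above (gene at chr2:80315466-80354043), fell. It had 52.8 and 57.7 CPM in the siPlat pools, against 96.4 and 90.9 CPM in the siCtrl pools, a log2 fold change of −0.76 ± 0.18 (SE, 2 pools a group; edgeR adjusted p = 0.0427). Without siCtrl pool 1 or 2 its adjusted p was 0.268 and 0.198 and with the replicate number as a block 0.0858 in edgeR, at nearly the same fold change, whereas Dnajc5b passed in each of these fits. Of the 8 listed ER J-proteins, Dnajc10 was the only one called, and Hspa5 had 179.9 and 164 CPM in the siPlat pools, against 176 and 216 CPM in the siCtrl pools.

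Several members had separate groups but did not pass. Hspb1 had 48.9 and 26.9 CPM in the siPlat pools, against 16.0 and 18.6 CPM in the siCtrl pools (log2 fold change 1.13 ± 0.28 SE; edgeR adjusted p = 0.0563), and the siPlat pools differed from each other by more than the siCtrl pools did. Hspa8 had 132 and 99.4 CPM in the siPlat pools, against 169 and 180.5 CPM in the siCtrl pools (−0.60 ± 0.18 SE; edgeR adjusted p = 0.106). Dnajc2, a ribosome-associated J-protein, had 160.3 and 191 CPM in the siPlat pools, against 117 and 117 CPM in the siCtrl pools (0.59 ± 0.17 SE; edgeR adjusted p = 0.088). DESeq2 called these 3 as well as Dnajc5b and Dnajc10, with 4.67% of genes called, 3.04% higher and 1.64% lower. Limma-voom called Dnajc5b and Dnajc10 only, with 3.72% of genes called, 2.35% higher and 1.36% lower.

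Hsp90aa1 had 15551 and 13240.4 CPM in the siPlat pools, against 11149 and 11028 CPM in the siCtrl pools (log2 fold change 0.38 ± 0.13 SE; edgeR adjusted p = 0.148). Hsp90ab1 had 646 and 564 CPM in the siPlat pools, against 715 and 843 CPM in the siCtrl pools (−0.37; edgeR adjusted p = 0.234). Hsph1 had 42.1 and 45.5 CPM in the siPlat pools, against 53.9 and 81.7 CPM in the siCtrl pools (−0.63 ± 0.22 SE; edgeR adjusted p = 0.157). Neither Hsp90 gene nor any of the 3 Hsp110 genes was called. Dnaja2, Dnajc11, Dnajc19, Dnajc21 and Dnajc25 complete the 12 members of lowest p and had edgeR adjusted p-values of 0.144 to 0.201.

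By role, edgeR called 2 of 24 Dnajc genes tested. It called none of 8 Dnajb, 4 Dnaja, 3 cytosolic Hsp70, 3 Hsp110 and 3 Hspb genes. Hsp90aa1, Hsp90ab1, Hspd1 and Hspe1 were not called either. Of the list of 13 heat shock genes, none of the 11 tested was called, where 3.54% of all genes were. At an unadjusted edgeR p under 0.05, 6 of the 11 passed, where 2096 of 11136 genes did. Dnajb1 had 51.3 and 53.7 CPM in the siPlat pools, against 54.4 and 55.0 CPM in the siCtrl pools, so the 4 pools were nearly level for this marker. Hspa1a had 0 and 4 counts in the siPlat pools, against 4 and 8 counts in the siCtrl pools. Replicates of Dnajb4 lay apart, at 1432 and 648 CPM in the siPlat pools, against 1083 and 766 CPM in the siCtrl pools.

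**Figure D5:**
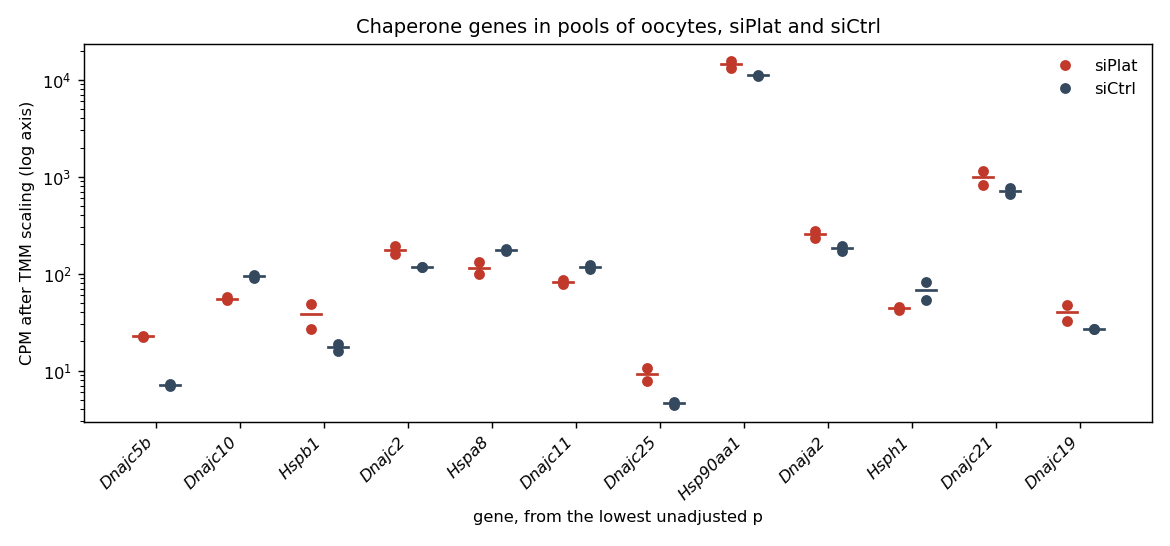
CPM after TMM scaling, on a log axis, of the 12 chaperone genes of lowest unadjusted p in 2 siPlat pools (left of each pair) and 2 siCtrl pools (right), with a bar at the mean. Dnajc5b has 22.8 and 22.3 CPM in the siPlat pools, against 7.28 and 6.99 CPM in the siCtrl pools, and most of the others differ by less.

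A list of 59 other proteostasis genes (co-chaperones, chaperonin and prefoldin subunits, ER and mitochondrial folding factors) places these results. edgeR called 3 of the 54 tested (5.56%), all higher in the siPlat pools, where 3.54% of all genes were called and 2.13% were higher. Hsbp1, a small protein that binds Hsf1, had 677 and 583 CPM in the siPlat pools, against 388 and 395 CPM in the siCtrl pools (log2 fold change 0.69 ± 0.15 SE; edgeR adjusted p = 0.0326). The prefoldin subunits Pfdn1 and Pfdn5, which hand nascent actin and tubulin to the chaperonin, had log2 fold changes of 0.76 and 0.67 (edgeR adjusted p = 0.0444 and 0.0463). With the replicate block, edgeR called 0 genes of this list, where 2.45% of all genes were called. In that fit 11 of the list had an unadjusted p under 0.05, where 1831 of 11136 genes did. DESeq2 called 5 of the list, where 4.67% of genes were called. In aged against young oocytes without the 21, 8 of 43 genes of this list were higher, among them the chaperonin subunits Cct2, Cct5 and Tcp1, and none was lower (8.87% and 1.87% of genes). Scaled to the spike-ins, 0 were higher and 21 of 42 lower (0.257% and 65.6% of genes).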

How the data were processed

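Read counts per gene, whole numbers without normalisation, were deposited by the authors for 4 pools (14165 genes) and for 94 single oocytes (54658 gene entries and 92 ERCC spike-in entries). STAR 2.7.10b, HTSeq 0.13.5 and mm10 are named per the submitters' processing notes. Annotation and strand setting of the counting are not given in the sources used here. Counts of overlapping and antisense genes are thus uncertain. Gene spans, exon lengths and overlaps came from GENCODE M21 and promoters from RefSeq, both GRCm38.

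Pools were tested with edgeR 4.0.16 in R 4.3.3 (robust quasi-likelihood fit, TMM, default expression filter at 10 counts, 15 in total, no covariate), with p-values adjusted over all genes tested and a threshold of 0.05. DESeq2 1.42.0, limma 3.58.1, other scalings and filters, left-out pools and a replicate block were alternatives. Whether the replicate numbers pair the pools could not be decided.

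Each age of single oocytes is 1 sample, so no test was made. Counts were summed over oocytes and given as CPM of gene counts, with a pseudocount of 1 CPM in log2 ratios. Exact Poisson intervals at 95% confidence, such as 96.4 to 98.8 CPM for Hspa8 in the other aged oocytes and 48.5 to 50.1 CPM in young oocytes, cover counting error only, and reads without molecular identifiers are not independent. Aged oocytes with over 5% mitochondrially encoded counts were left out in an alternative, and 2 further alternatives combining this with other scalings were chosen after seeing the data.

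Named genes were called genes and those of lowest p in the pools, up to 12, the 8 highest and 8 lowest ratios in the oocytes, the 8 highest levels per kilobase, and the genes of the cytosolic Hsp70, Hsp90 with Hsp60, and heat shock gene lists. Others were named as examples of their list, or as sequence matches, after their values were seen. The members, lists and rules were chosen with earlier results of these data known.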

Additional observations from a re-analysis of the deposited data

How the results depend on the processing

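In the pools, DESeq2 called 5 members, 657 genes in all and 5 other proteostasis genes, and the fit without a filter 3 members and 581 genes. With the replicate block, edgeR called 1 member, 273 genes and 0 other proteostasis genes. Deviations of siPlat pool 1 and siCtrl pool 1 from their group means correlated at −0.10 over genes. With 2 pools a group this is 1 value without a spread, so it cannot decide whether the replicate numbers pair the pools. Leaving out each pool gave 1 to 7 members, 157 to 1145 genes and 0 to 8 other proteostasis genes; the 7 members without siPlat pool 1 and the 7 without siPlat pool 2 shared Dnajc5b and Dnajc10. Dnajc5b was called in all 9 alternatives. Limma-voom and the other size factors called 2 members each. A pool left alone in its group was assumed to vary like the others.

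In aged over young oocytes, the number of members higher was 4 and became 7 without the 21 oocytes of high mitochondrial share or with a minimum of 1 CPM, 2 with the mean over oocytes or a pseudocount of 5 CPM, 0 per ERCC count with all oocytes or without the 21, and 7 with the median over oocytes without the 21. The number lower was 5 and became 1 without the 21 (also with the median over oocytes), 2 by CPM of nuclear genes, 3 with the median over all oocytes or a pseudocount of 5 CPM, 8 with the mean over oocytes, 36 per ERCC count and 21 per ERCC count without the 21. The median log2 ratio was 0.01 and became 0.19 without the 21, 0.20 without them and with the median over oocytes, 0.17 by CPM of nuclear genes, −0.078 with the mean over oocytes, 0.066 with a minimum of 1 CPM, −1.45 per ERCC count and −0.63 per ERCC count without the 21. Per ERCC count with all oocytes, 4 called genes reversed: Dnajc7 (−0.61), Hspa4 (−0.75), Hspa8 (−0.86) and Hsph1 (−0.68). Dnaja4 was lower in all of these settings. The share of all genes called also moved with the setting. Lower genes were 9.38% summed over all oocytes, 5.01% by CPM of nuclear genes and 8.87% with the median over all oocytes. They were 6.61% with a pseudocount of 5 CPM and 16.2% with the mean over oocytes. Higher genes were 9.45% summed over all oocytes, 6.46% with that pseudocount and 10.02% with the mean. With a minimum of 1 CPM, which 53 members passed, 9.05% of genes were higher. Without the 21, 8.87% were higher and 1.87% lower. With the median over oocytes without the 21, 41 members passed, and 9.79% of genes were higher and 2.30% lower. Per ERCC count, 0.377% were higher and 95.8% lower with all oocytes, and 0.257% and 65.6% without the 21. The member counts are therefore not read as changes of the chaperones alone. The cause was not tested.

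With 2 pools a group, 1 sample an age and no animals named in the labels, the spread between animals is unknown, and genes near 1 CPM rest on few counts in any 1 oocyte.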

Other observations

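Hspa8, Hsph1 and Hspa4 were higher in the 38 other aged oocytes than in young ones, and were also compared oocyte by oocyte. Over the 38 other aged oocytes Spearman's rho was 0.39 for Hsph1 with Hspa4, 0.06 for Hspa8 with Hsph1 and 0.06 for Hspa8 with Hspa4. Over the 35 young oocytes the values were 0.66, 0.13 and 0.26. The oocytes of an age are 1 sample, so these carry no test.

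Some members stood at different levels in the siCtrl pools and in untreated single young oocytes, which come from separate tables and are set side by side only. Hsp90aa1 averaged 11089 CPM in the siCtrl pools and 3038 CPM in young single oocytes, Dnajc7 had 163 and 180.1 CPM in the siCtrl pools and 15.9 CPM in young single oocytes, and Dnajb1 had 54.4 and 55.0 CPM in the siCtrl pools and 160.0 CPM in young single oocytes. Dnajc15, a mitochondrial import J-protein under the 5 CPM minimum in the mean of both ages, had 6.24 CPM in the other aged oocytes and 2.39 CPM in young oocytes.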
